A study of Mus musculus with 6 samples.

Results

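Calcium channels, calcium pumps and the proteins that release or buffer stored calcium form the group of genes described here. They comprise voltage-gated calcium channels with their accessory subunits, ryanodine and inositol trisphosphate (IP3) receptors, SERCA and plasma membrane pumps, TRPC and store-operated channels, calsequestrins, junctophilins, phospholamban and sarcolipin. They were chosen by gene symbol among the protein-coding rows of the deposited table, and 55 of its 26018 genes matched. Another 4 symbols of these families, Cacng2, Cacng3, Trpc2 and Trpc5, were not analysed here. RNA was sequenced from uteri of untreated 6-week-old female mice of matched body weight, with 3 Tcf21f/f controls and 3 Tcf21d/d conditional knockouts (cKO). Each animal gave 1 library. The labels name neither the Cre driver nor the deleted stretch of the gene. TCF21 is a transcription factor of the basic helix-loop-helix class, active in mesenchyme, and the study looked for genes downstream of it in uterine development.

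In muscle, calcium enters through voltage-gated channels or leaves the sarcoplasmic reticulum through ryanodine and IP3 receptors, and its rise triggers contraction. SERCA pumps return calcium to the store, plasma membrane pumps expel it, and STIM and ORAI proteins refill an emptied store. Smooth muscle of the uterus uses the L-type pore gene Cacna1c, T-type channels, IP3 receptors and TRPC channels. Skeletal fibres use a dedicated set, with Cacna1s as voltage sensor, Ryr1 as release channel, Casq1 as store buffer and Atp2a1 as pump.

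The libraries held 14584450 to 16579573 reads on genes, and values are normalised read counts (reads divided by 1 size factor per library). Tcf21 was at 341, 152 and 144 in the controls and at 26.0, 0 and 0 in the cKO libraries, with a limma adjusted p of 0.0765. The uterine genes Pgr, Esr1 and Hoxa10 were present in every library, whereas the epithelial genes Foxa2 and Wnt7a had few or no reads outside control replicate 1. Skeletal muscle markers (14 genes) took 3.11 to 5.99% of reads in control uteri and 6.28 to 9.14% in cKO libraries, and 12 smooth muscle markers took 1.23 to 1.77% and 0.515 to 0.689%. Des, the most abundant of these smooth muscle markers in every library, had means of 72716 in control and 76230 in cKO uteri. The summed share of the smooth muscle markers therefore fell less than that of the others without Des. Neuron markers (10 genes) took 0.0528% of control replicate 3 and at most 0.00909% elsewhere. Liver markers (8 genes) took 1.32% of control replicate 1 and at most 0.00819% elsewhere. Mitochondrially encoded genes took 23.8% of reads in control replicate 1 and 8.10 to 13.7% elsewhere. In bulk tissue, fewer cells of a type and less RNA per cell cannot be told apart. Where the skeletal muscle and liver reads in these uterus libraries came from was not tested.

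The sequence just before the start of 4 genes that fell, and of Casq1 from the skeletal set, is shown because TCF21 belongs to a class of factors that bind E-boxes. Each window is the 250 bases before a RefSeq start site (GRCm38.p6) on the gene's strand, 5′ to 3′. Capitals mark the E-box, CANNTG, which reads alike on both strands. The windows are chr14:29721865-29722114 (minus strand) for Cacna2d3, chr6:119196410-119196659 (minus) for Cacna1c, chr1:133753748-133753997 (minus) for Atp2b4, chr3:54155807-54156056 (plus) for Trpc4 and chr1:172219896-172220145 (minus) for Casq1. That of Atp2b4 belongs to a start inside the gene. No window was available for Cacna1h and Ryr3, which also fell. Cacna1c has 3 windows, of which the one at the gene's outer start is shown, and the others hold 1 E-box each.
Cacna2d3: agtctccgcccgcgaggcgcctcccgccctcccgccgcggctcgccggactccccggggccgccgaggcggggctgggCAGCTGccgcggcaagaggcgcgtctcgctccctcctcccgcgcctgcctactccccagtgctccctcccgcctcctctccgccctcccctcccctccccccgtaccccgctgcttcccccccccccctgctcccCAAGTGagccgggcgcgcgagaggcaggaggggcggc
Cacna1c: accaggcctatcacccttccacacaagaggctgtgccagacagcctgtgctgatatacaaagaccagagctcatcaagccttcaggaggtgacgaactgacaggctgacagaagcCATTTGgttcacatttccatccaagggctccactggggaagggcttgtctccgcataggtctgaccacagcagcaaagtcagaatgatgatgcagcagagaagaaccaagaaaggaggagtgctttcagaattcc
Atp2b4: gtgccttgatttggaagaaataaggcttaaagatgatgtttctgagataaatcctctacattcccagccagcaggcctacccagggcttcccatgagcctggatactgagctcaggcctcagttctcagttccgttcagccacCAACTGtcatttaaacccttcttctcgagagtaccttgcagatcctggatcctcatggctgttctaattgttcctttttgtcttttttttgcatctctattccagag
Trpc4: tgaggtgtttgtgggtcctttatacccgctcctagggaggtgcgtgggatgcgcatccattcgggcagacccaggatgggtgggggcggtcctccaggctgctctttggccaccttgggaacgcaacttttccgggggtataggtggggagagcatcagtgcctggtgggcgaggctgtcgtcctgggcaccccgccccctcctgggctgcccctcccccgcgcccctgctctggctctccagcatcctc
Casq1: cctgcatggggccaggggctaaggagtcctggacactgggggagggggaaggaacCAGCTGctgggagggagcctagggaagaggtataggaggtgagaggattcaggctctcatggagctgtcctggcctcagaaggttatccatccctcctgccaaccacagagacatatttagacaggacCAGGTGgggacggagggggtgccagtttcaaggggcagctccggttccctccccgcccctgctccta
The Cacna2d3 and Casq1 windows hold 2 E-boxes each, 1 of them CAGCTG. The Cacna1c and Atp2b4 windows hold 1 each, and the Trpc4 window holds none. CANNTG was found in 34 of the 55 windows available for 42 of the calcium genes (61.8%) and in 66.2% of 32851 windows over all genes. CAGCTG, a form of the same motif, was in 13 of the 55 (23.6%) and in 4271 of the 32851. A match describes the letters only and is not a bound site.

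Of the 55 genes, 47 passed the filter on low reads and were tested. Among these, 6 were lower in the cKO uteri and none was higher (limma on log2 values, Benjamini-Hochberg adjusted p under 0.05 over all 16314 genes tested). Of all tested genes, 0.889% were called lower and 0.276% higher (1.16% in all), against 12.8% and 0% of the 47. The 6 were the T-type pore gene Cacna1h, the L-type pore gene Cacna1c, the accessory subunit gene Cacna2d3, the ryanodine receptor gene Ryr3, the plasma membrane pump gene Atp2b4 and the TRPC channel gene Trpc4. Cacna1h and Ryr3 passed in all 17 alternative fits, while leaving out cKO replicate 2 or cKO replicate 3 left only those 2 of the 6. At an unadjusted p under 0.05, 14 were lower and 8 higher, as were 7.6% and 6.11% of all tested genes. DESeq2 called 11 lower and 4 higher, against 3.54% and 1.72% of all tested genes. edgeR called 5 lower and none higher, against 0.736% and 0.19%.

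The authors' deposited table lists 12 of the 55 as lower and 5 as higher at an adjusted p under 0.05, against 2.34% and 0.872% of all its genes. The 6 genes above are among the 12, with Cacna1e, Cacnb2, Ryr2, Atp2a3, Jph3 and Jph4, in the authors' deposited table. The 5 genes higher in the authors' deposited table are Cacnb1, Cacng1, Ryr1, Atp2a1 and Casq1. The median log2 fold change of the 47 was -0.25, and that of all tested genes was 0.0020. All 3 cKO libraries lay below all 3 controls for 15 of the 47 and above them for 7, as they did for 10.5% and 9.04% of all tested genes.

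**Figure D1:**
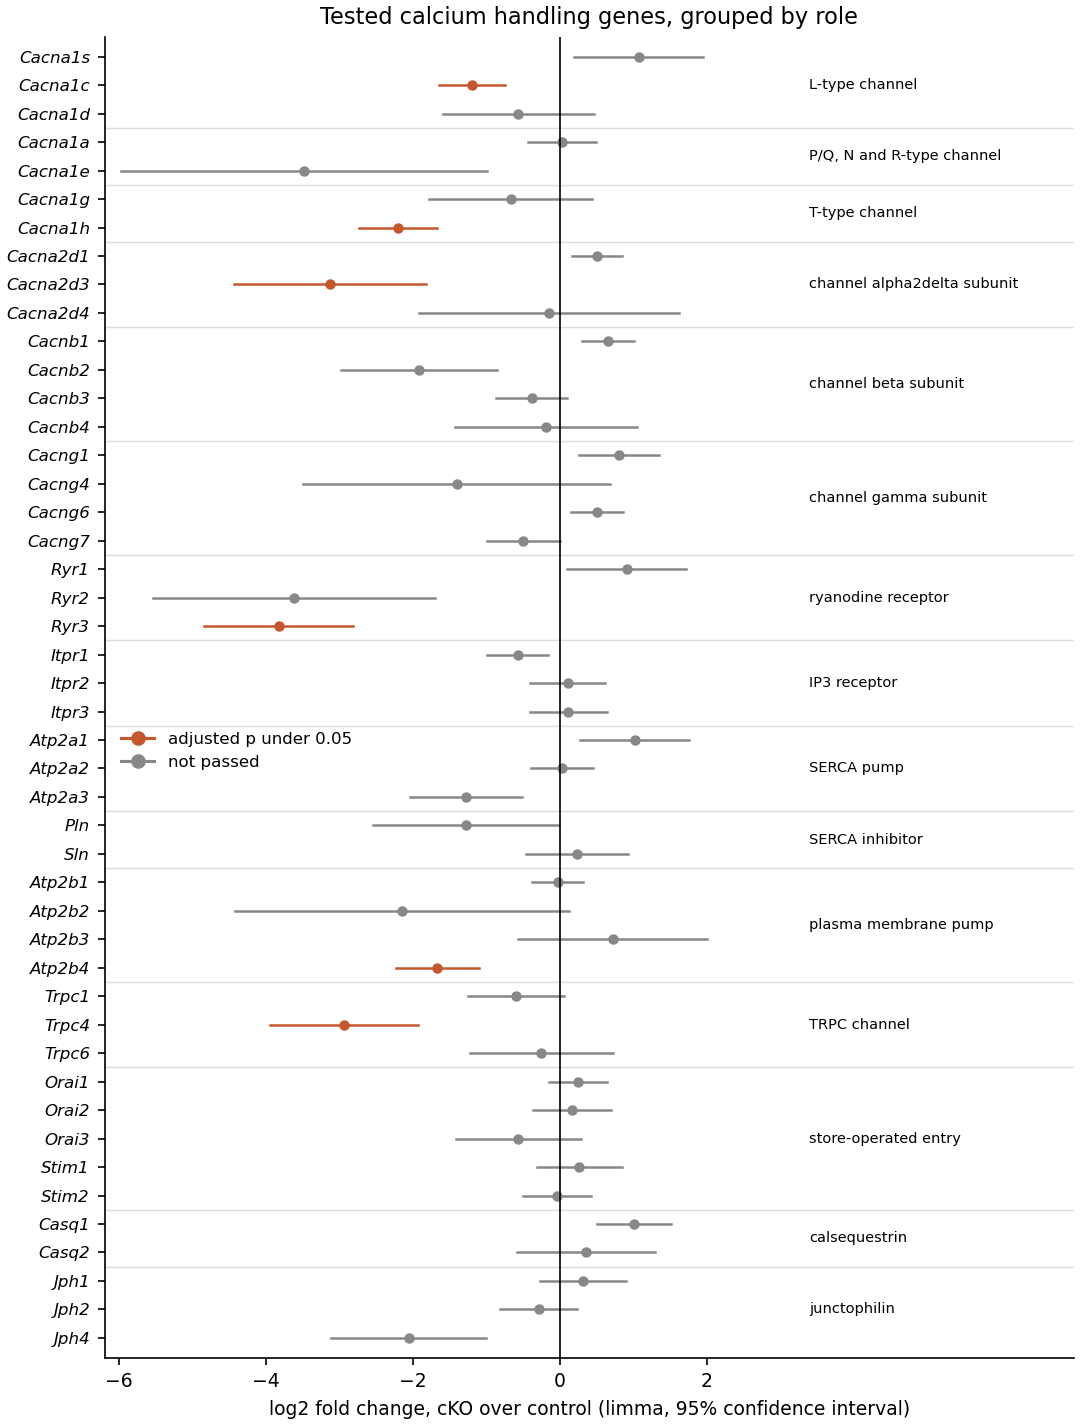
Log2 fold change of cKO over control (horizontal axis) with its 95% confidence interval from limma for the tested genes reported here, grouped by role. Orange marks the 6 genes with an adjusted p under 0.05, which all lie left of 0, and grey marks those that did not pass.

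Among the pore-forming subunits, the T-type channel Cacna1h, which opens near the resting voltage, fell. It was at 675, 1035 and 1202 normalised reads in control uteri and 180.3, 222 and 213 in cKO uteri. The groups were far apart, with means of 971 ± 269 and 205 ± 22.1 (SD, n = 3). On the log2 scale Cacna1h fell by 2.20 ± 0.23 (SE), with a limma adjusted p of 0.00373. The gene lies on chromosome 17 at 25374285 to 25433783 (GRCm38, minus strand). Its relative Cacna1g was at 522, 849 and 234 in control uteri and 337, 385 and 198 in cKO uteri, and these groups overlapped (limma adjusted p 0.601). The third T-type gene, Cacna1i, had at most 12 reads in a library and was not tested.

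Cacna1c, the L-type pore of smooth and cardiac muscle, also fell. It was at 1149.8, 1413 and 1131 in control uteri and 689, 449 and 487 in cKO uteri. The groups did not overlap, and the means were 1231 ± 158 and 542 ± 129 (SD, n = 3). Cacna1c had a log2 fold change of -1.20 ± 0.20 (SE) and a limma adjusted p of 0.0283, which rose to 0.0603 without control replicate 2, 0.167 without cKO replicate 2 and 0.173 without cKO replicate 3 (5.58e-05 to 0.173 over the 17 alternatives). The gene lies on chromosome 6 at 118587240 to 119196418 (GRCm38, minus strand).

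The skeletal L-type gene Cacna1s had the higher mean in cKO uteri. It was at 582, 1678 and 820.3 in control uteri and 1497, 2372 and 2113 in cKO uteri. Control replicate 2 lay above cKO replicate 1, and the limma adjusted p was 0.268 (0.0330 without control replicate 2, 0.0330 to 0.679 over the 17 alternatives). Exons of Gm37759 on the opposite strand overlap part of Cacna1s, and the labels do not say whether counting used strand. Per kilobase of exon, Cacna1s made up 67.5 ± 9.11% (SD, n = 3) of the L-type family's reads in control uteri and 89.8 ± 5.23% in cKO uteri. Cacna1c made up 28.2 ± 8.08% and 7.98 ± 3.46%, without overlap between the groups. The higher mean of Cacna1s in cKO uteri adds to this smaller share of Cacna1c. Cacna1d, the L-type pore of pacemaker and endocrine cells, was at 79.3 to 141 in control uteri and 38.0 to 125 in cKO uteri. Cacna1f, the L-type pore of the retina, had at most 16 reads in a library and was not tested.

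The other pore genes are those of nerve terminals. The R-type gene Cacna1e was at 28.0, 208 and 646 in control uteri and 23.2, 7.80 and 12.2 in cKO uteri. The groups did not overlap, but control replicate 1 lay close to cKO replicate 1. Its log2 fold change was -3.48 ± 1.06 (SE), and the limma adjusted p was 0.208 (0.00576 to 0.590 over the 17 alternatives). Without control replicate 1 it was -4.70 (limma adjusted p 0.00613), and without control replicate 3 it was -2.46 (0.246). Stretches of up to 198 bases of its exons match those of 22 other genes at 95% identity or more, so some of its reads are uncertain. The N-type gene Cacna1b was at 73.8 in control replicate 3, at 3.66 and 9.89 in the other controls and at 0 to 6.50 in cKO libraries, and was not tested. Neuron markers took 0.00274%, 0.00909% and 0.0528% of reads in control replicates 1, 2 and 3 and 0.00291 to 0.00428% in cKO libraries. Of those 10 markers 6 were tested and 2 fell, and Snap25 and Nefl were among those with no read in any cKO library. The 4 that did not pass, Uchl1, Stmn2, Prph and Tubb3, overlapped between the groups. Uchl1 was at 152, 347 and 1448 in control uteri and 337, 437 and 266 in cKO uteri. The part of neuron content in these values was not tested. The P/Q-type gene Cacna1a was at 329, 294 and 453 in control uteri and 376, 362 and 345 in cKO uteri. Its groups overlapped, and the 95% confidence interval of its log2 fold change ran from -0.43 to 0.50 (limma).

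**Figure D2:**
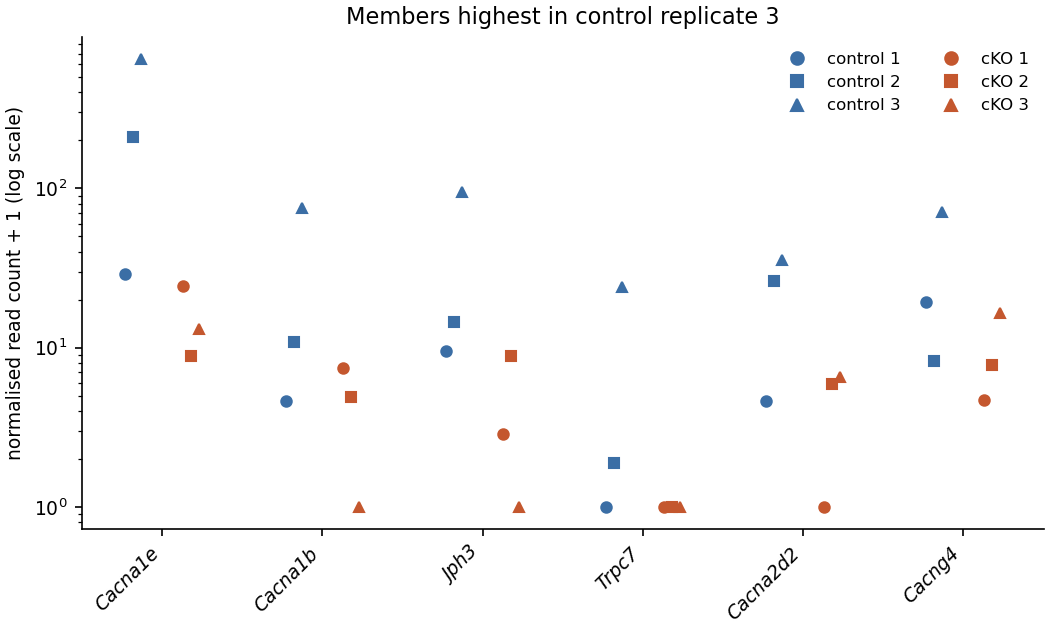
Normalised read count plus 1 on a log axis, with 1 point per library (blue for control, orange for cKO). The 6 genes were picked after their values were seen, from those with control replicate 3 highest. That library was also highest for other genes not shown here, such as Cacna1h and Jph4. Cacna1e reached 646 in that library, and Trpc7 had no read in any cKO library.

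Accessory subunits differed from gene to gene. Alpha2delta subunits help bring the pore to the membrane. Cacna2d3 was at 128, 137 and 158 in control uteri and 18.6, 32.2 and 5.52 in cKO uteri. No value overlapped, and the ratio of control to cKO means was 7.51. Cacna2d3 had a log2 fold change of -3.13 ± 0.58 (SE) and a limma adjusted p of 0.0427. That p was 0.0488 without control replicate 1 and 0.0640 to 0.119 when any other single library was left out (8.92e-06 to 0.119 over the 17 alternatives). The gene lies on chromosome 14 at 28904943 to 29721864 (GRCm38, minus strand). Cacna2d1, the subunit of skeletal and cardiac channels, was at 2219, 2218 and 2549.7 in control uteri and 3386, 3082 and 3414 in cKO uteri. All cKO values were the higher ones, and the limma adjusted p was 0.180. Cacna2d4 overlapped between the groups, and Cacna2d2 had at most 39 reads in a library and was not tested.

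Beta subunits sit on the inner face of the channel. Limma called none of the 4, while DESeq2 called Cacnb2 lower (adjusted p 0.00704) and Cacnb1 higher (0.00861). The authors' deposited table also lists Cacnb2 as lower and Cacnb1 as higher. Cacnb2, a partner of Cacna1c in heart and smooth muscle, was at 255, 309 and 298 in control uteri and 152, 78.0 and 35.4 in cKO uteri. The groups did not overlap, and the limma adjusted p was 0.112 (log2 fold change -1.92 ± 0.47, SE). Opposite-strand exons of Gm10848, Gm10849 and Gm13269 cover 7.3% of Cacnb2. Cacnb1, the beta subunit of the skeletal channel, was at 1188, 1454 and 1455 in control uteri and 1994, 2255 and 2172 in cKO uteri. Its groups did not overlap either, and the limma adjusted p was 0.0988. Per kilobase, Cacnb1 took 58.5 ± 6.96% (SD, n = 3) of the beta family's reads in control uteri and 75.6 ± 3.01% in cKO uteri. Cacnb3 and Cacnb4 overlapped between the groups.

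Limma called none of the 4 gamma subunits tested, while DESeq2 called Cacng1 higher (adjusted p 0.0371), as does the authors' deposited table. Cacng1, of the skeletal channel, was at 1014, 1304 and 1586 in control uteri and 1641, 2809 and 2453 in cKO uteri. The lowest cKO value was just above the highest control, and the limma adjusted p was 0.175. Cacng6 was at 549.9, 618 and 661 in control uteri and 779, 916 and 910.5 in cKO uteri (limma adjusted p 0.190). Cacng7 and Cacng4 overlapped between the groups, and Cacng5 and Cacng8 had at most 9 and 28 reads in a library and were not tested. Cacng5 had no read in the cKO libraries, which allows up to 2.79, 2.93 and 3.31 there (3 reads, counting error only).

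Among the release channels of the store, the ryanodine receptor Ryr3 fell. Ryr3, the type found at low levels in many tissues, smooth muscle included, was at 283, 367 and 365 in control uteri and 37.2, 10.7 and 28.7 in cKO uteri. The groups were far apart, and the ratio of control to cKO means was 13.2. Its log2 fold change was -3.83 ± 0.45 (SE) and its limma adjusted p 0.00552. The gene lies on chromosome 2 at 112631355 to 113217096 (GRCm38, minus strand). Exons of Aven on the opposite strand cover 4.8% of Ryr3. Ryr2, the cardiac type, was at 17.1, 155 and 161 in control uteri and 5.58, 5.85 and 4.42 in cKO uteri. Control replicate 1 was well below the other controls and still above every cKO library. The limma adjusted p was 0.0947 (log2 fold change -3.62 ± 0.85, SE), and 0.00477 with a log2 fold change of -4.67 without control replicate 1 (4.7e-06 to 0.418 over the 17 alternatives). That library held 1.32% of its reads on liver markers and 23.8% on mitochondrially encoded genes, and the part of either in this was not tested. Cardiac markers other than the calcium genes (5 genes) took 0.00620 to 0.0217% of reads in control uteri and 0.00849 to 0.0293% in cKO libraries, and none of the 4 tested passed by limma or had an unadjusted p under 0.05.

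Ryr1, the skeletal type, was at 6619, 13032 and 12020.0 in control uteri and 11908, 26036 and 22344 in cKO uteri. The groups overlapped, and the limma adjusted p was 0.305. Per kilobase, Ryr1 made up 95.6 ± 0.45% (SD, n = 3) of the ryanodine receptor reads in control uteri and 99.8 ± 0.17% in cKO uteri, and Ryr3 3.71 ± 0.85% and 0.18 ± 0.16%. The higher mean of Ryr1 in cKO uteri adds to the smaller share of Ryr3 there. Of the IP3 receptors, which answer to hormone signals, Itpr1 was at 722, 1021 and 1021 in control uteri and 659.7, 587 and 587 in cKO uteri. No value overlapped, and the limma adjusted p was 0.196 (0.0466 without control replicate 1, 0.0466 to 0.562 over the 17 alternatives). Itpr2 and Itpr3 overlapped between the groups, with confidence intervals of the log2 fold change of -0.41 to 0.62 and -0.41 to 0.64 (limma).

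**Figure D3:**
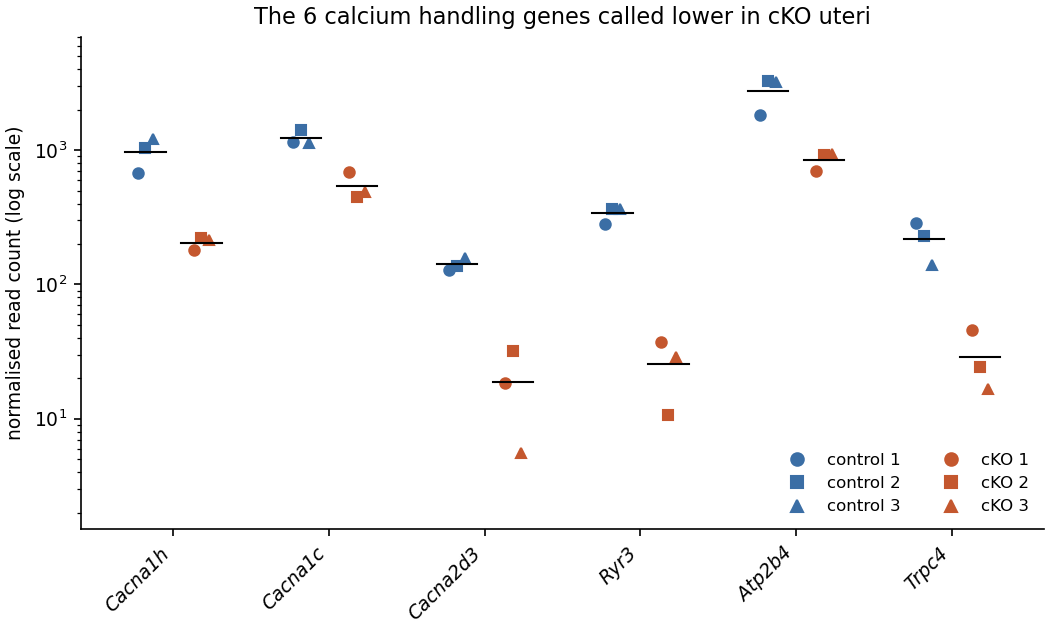
Normalised read counts by library (blue, control; orange, cKO), with bars at group means, for the genes called lower in cKO uteri. In each of the 6, every cKO library lies below every control, as for Ryr3 with 10.7 to 37.2 against 283 to 367.

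SERCA pumps refill the store, and limma called none of the 3. DESeq2 called Atp2a3 lower (adjusted p 0.00191), and the authors' deposited table lists Atp2a3 as lower and Atp2a1 as higher. Atp2a1, the pump of fast skeletal fibres, was at 30811, 52697 and 20557 in control uteri and 67904, 55567 and 73428 in cKO uteri. The lowest cKO value was slightly above the highest control, and the limma adjusted p was 0.209 (log2 fold change 1.02 ± 0.33, SE). It was 0.0493 without control replicate 2 (0.0493 to 0.572 over the 17 alternatives). Exons of Rabep2 on the opposite strand cover 21.9% of Atp2a1. Atp2a2, the pump of slow, cardiac and smooth muscle, was at 6195 ± 991 and 6316 ± 838 (SD, n = 3), with a confidence interval of its log2 fold change from -0.39 to 0.46 (limma). Atp2a3, the pump of platelets and epithelia, was at 559.6, 996 and 1578 in control uteri and 363, 420.3 and 404 in cKO uteri. The groups did not overlap, and the limma adjusted p was 0.141, or 0.00585 without control replicate 1 (0.00191 to 0.417 over the 17 alternatives). Of the inhibitors of these pumps, phospholamban (Pln) was at 63.4, 129 and 109 in control uteri and 15.8, 62.4 and 59.7 in cKO uteri (limma adjusted p 0.360). Opposite-strand exons of Cep85l and Gm47644 cover 64.7% of Pln. Sarcolipin (Sln), the more abundant inhibitor here, was at 1062, 2107 and 2148 in control uteri and 2128, 1485 and 2453 in cKO uteri, with overlap.

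Among the pumps of the plasma membrane, Atp2b4 fell. It was at 1815, 3284 and 3227 in control uteri and 695, 921 and 937 in cKO uteri. The groups did not overlap, and the means were 2775 ± 832 and 851 ± 135 (SD, n = 3). Atp2b4 had a log2 fold change of -1.67 ± 0.25 (SE) and a limma adjusted p of 0.0177, which was 0.0838, 0.0926 and 0.0899 without cKO replicates 1, 2 and 3 (4.09e-08 to 0.0926 over the 17 alternatives). The gene lies on chromosome 1 at 133699457 to 133801041 (GRCm38, minus strand). Atp2b1, the pump found in nearly all cells, was at 1124 ± 134 and 1098 ± 66.3 (SD, n = 3), with a confidence interval from -0.38 to 0.32 (limma log2 fold change). Per kilobase, Atp2b4 made up 72.8 ± 5.09% (SD, n = 3) of the family's reads in control uteri and 46.4 ± 4.90% in cKO uteri, and Atp2b1 24.7 ± 4.54% and 48.6 ± 4.95%. Atp2b2 and Atp2b3, pumps of neurons, were at 65.8 or less in every library and overlapped between the groups.

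TRPC channels are cation channels opened downstream of phospholipase C. Trpc4 was at 285, 228 and 141 in control uteri and 45.5, 24.4 and 16.6 in cKO uteri. All cKO values were below the lowest control, and the ratio of control to cKO means was 7.56. Trpc4 had a log2 fold change of -2.94 ± 0.45 (SE) and a limma adjusted p of 0.0192, which was 0.0529 without control replicate 2 and 0.113 and 0.0911 without cKO replicates 2 and 3 (5.2e-08 to 0.113 over the 17 alternatives). The gene lies on chromosome 3 at 54156035 to 54318471 (GRCm38, plus strand). Trpc1 was at 132, 114 and 189 in control uteri and 94.8, 88.7 and 96.1 in cKO uteri (limma adjusted p 0.409), and Trpc6 overlapped between the groups. Trpc7 was at 23.1 in control replicate 3, with 0 and 0.899 in the other controls and no read in cKO libraries, and was not tested. Per kilobase, Trpc4 made up 23.2 ± 7.45% (SD, n = 3) of the family's reads in control uteri and 5.70 ± 2.47% in cKO uteri.

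**Figure D4:**
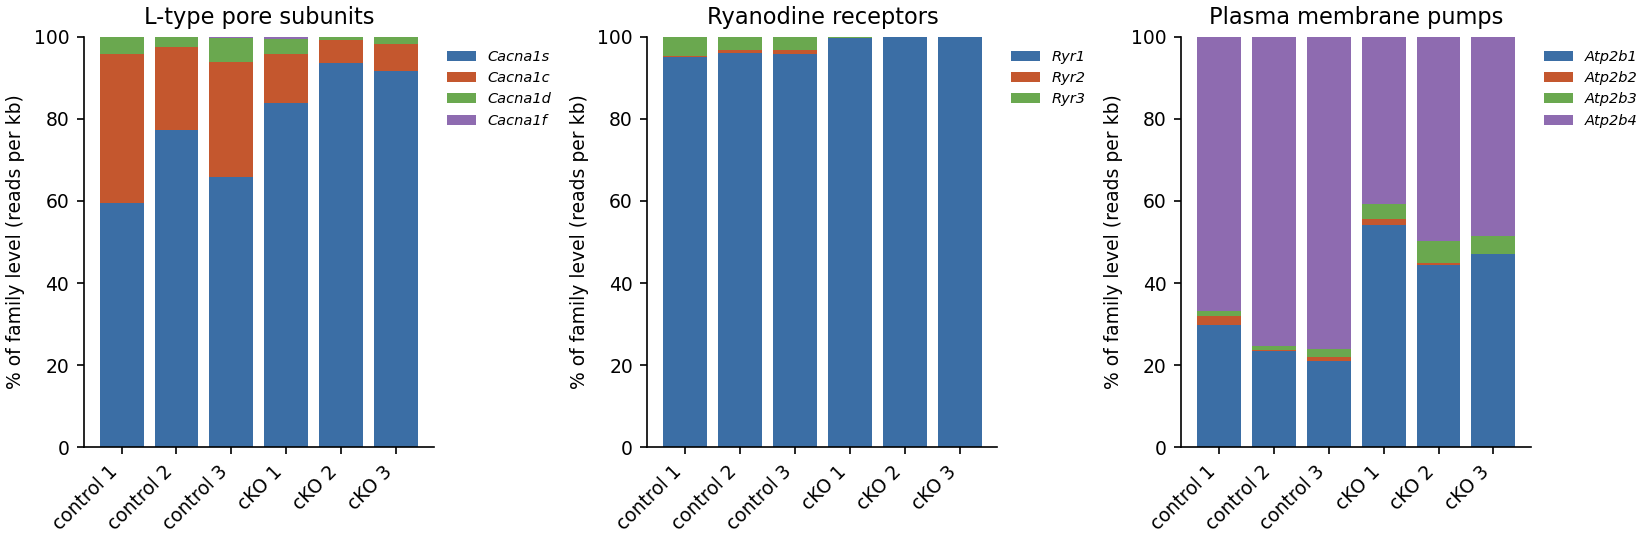
Share of each family's level, in normalised reads per kilobase of exon, taken by each gene in each of the 6 libraries, for L-type pores, ryanodine receptors and plasma membrane pumps. Cacna1c, Ryr3 and Atp2b4 take smaller shares in every cKO library than in any control. A share also falls where another gene of the family is higher, as Cacna1s and Ryr1 were in the mean.

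Neither limma nor DESeq2 called a store-operated entry gene. The pore genes Orai1, Orai2 and Orai3 and the store sensors Stim1 and Stim2 had limma adjusted p-values of 0.566 to 0.965. Orai1 was at 347, 435 and 448 in control uteri and 460.0, 484 and 507 in cKO uteri, a narrow gap without overlap. The other 4 overlapped between the groups.

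Calsequestrins bind calcium inside the store, and junctophilins hold the store against the surface membrane. Casq1, the skeletal form, was at 5767, 9482 and 6131 in control uteri and 12449, 14495 and 15104 in cKO uteri. Every cKO value was above every control, with means of 7127 ± 2048 and 14016 ± 1391 (SD, n = 3). The log2 fold change was 1.01 ± 0.22 (SE) with a limma adjusted p of 0.0761, or 0.0237 without control replicate 2 (0.00126 to 0.337 over the 17 alternatives). Exons of Gm17224 on the opposite strand cover 8.0% of Casq1. Casq2, the cardiac form, overlapped between the groups, as did the muscle junctophilins Jph1 and Jph2. Jph2 was at 4078, 7412 and 5177 in control uteri and 3812, 4421 and 5084 in cKO uteri. The neuronal junctophilin Jph4 was at 98.8, 120.4 and 177 in control uteri and 56.7, 19.5 and 24.3 in cKO uteri (limma adjusted p 0.0824). Jph3, the other neuronal form, was at 8.53, 13.5 and 94.3 in control uteri and 1.86, 7.80 and 0 in cKO uteri and was not tested.

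The 8 genes higher at an unadjusted p under 0.05 were Cacna1s, Cacna2d1, Cacnb1, Cacng1, Cacng6, Ryr1, Atp2a1 and Casq1, at 1.41 to 1.97 times the control mean. Their limma adjusted p-values were 0.0761 to 0.305. Skeletal muscle markers had the higher mean in cKO libraries for 13 of 13 tested. None passed by limma, 10 were higher at an unadjusted p under 0.05, and the authors' deposited table lists 8 as higher. Their share of reads was 4.47 ± 1.45% in control uteri and 8.04 ± 1.54% in cKO libraries (SD, n = 3). Per 1000 reads of those markers, all 8 genes overlapped between the groups, with ratios of cKO to control means of 0.749 to 1.09. Casq1, for example, was at 10.4, 10.8 and 10.2 in control uteri and 12.9, 10.2 and 10.8 in cKO libraries on that scale. Ryr1 was at 11.96, 14.9 and 19.99 in control uteri and 12.3, 18.2 and 15.9 in cKO uteri, again with overlap. Because the markers took a larger share of cKO libraries, ratios lower than those of the normalised counts were fixed beforehand. The share of all tested genes that overlap on that scale was not computed. The part of skeletal muscle content in the 8 genes was not tested.

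**Figure D5:**
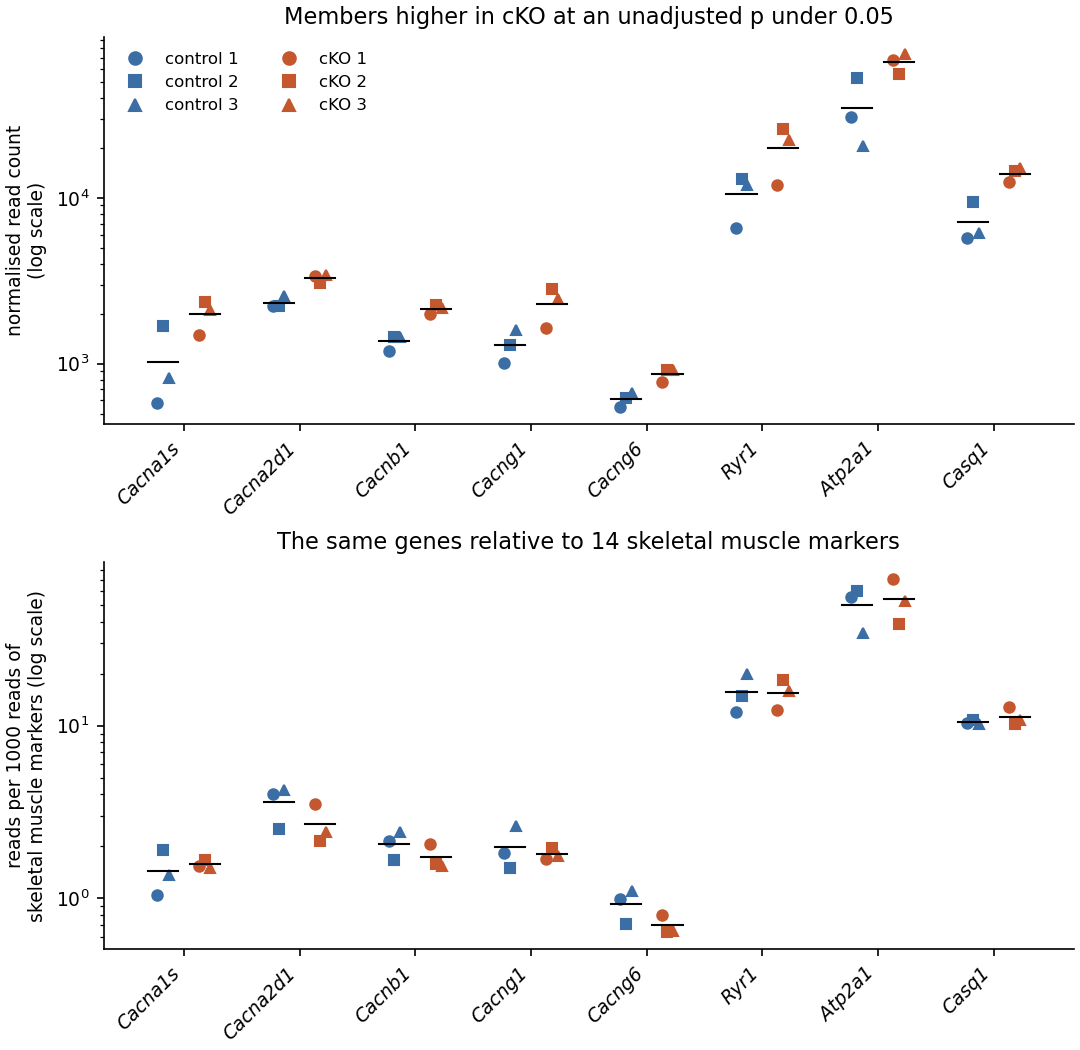
Normalised read counts by library for the 8 genes higher at an unadjusted p under 0.05 (upper panel), and the same genes per 1000 reads of 14 skeletal muscle markers (lower panel), with bars at group means (blue, control; orange, cKO). The groups overlap for 2 of the 8 genes above (Cacna1s and Ryr1) and for all 8 below.

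Dividing by these markers, whose share was larger in cKO libraries, lowers every gene there. On that scale 26 of the 47 tested genes lay below every control and none above. Those 26 included 12 of the 25 with an unadjusted p of 0.05 or more. The share of all tested genes below every control on that scale was not computed, so the 26 show nothing particular to these genes. The 6 genes that fell were among the 26, at 0.0432 to 0.247 of the control mean. Smooth muscle markers fell with them: 9 of 12 tested passed, Acta2 at 39614 ± 10832 and 4988 ± 495 and Myh11 at 32446 ± 9568 and 1399.5 ± 145 (SD, n = 3). Of the 12, Myocd had no read in cKO replicate 2, and Des, which skeletal muscle also expresses, was at 72716 ± 10958 and 76230 ± 15687 (limma adjusted p 0.948). Uterine stroma and epithelium markers were also lower in the mean for 7 of 8 tested, with a median log2 fold change of -1.56. Their share of reads was 0.0221 to 0.0508% in control uteri and 0.0116 to 0.0187% in cKO libraries. None passed by limma, 4 were lower and 1 higher at an unadjusted p under 0.05, and the authors' deposited table lists 5 as lower. The marker with the higher mean was Wnt4, at 330 ± 228 in control uteri and 582 ± 105 in cKO uteri (SD, n = 3). Foxa2 and Wnt7a were at 89.0 and 75.6 in control replicate 1, at 3.59 or less in every other library, and were not tested. The part of smooth muscle or uterine stroma content in the 6 genes was not tested.

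Beyond these families, 54 other calcium genes (exchangers, sensors, regulators of the store and calmodulin pathway) were listed, and 53 were tested. By limma 2 fell and none rose, against 0.889% and 0.276% of all tested genes. At an unadjusted p under 0.05, 6 were lower and 13 higher, against 7.6% and 6.11%. DESeq2 called 4 lower and 5 higher, against 3.54% and 1.72%. Their median log2 fold change was 0.10. Mrvi1, a partner of the IP3 receptor in smooth muscle, was at 3231, 2664 and 2549.7 in control uteri and 769, 696 and 579 in cKO uteri. The groups were far apart (log2 fold change -2.05 ± 0.17, SE, limma adjusted p 0.00131). Slc8a2, a sodium-calcium exchanger, was at 87.8, 164 and 155 in control uteri and 13.01, 22.4 and 8.84 in cKO uteri, again without overlap. Its log2 fold change was -3.15 ± 0.48 (SE) and its limma adjusted p 0.0187, or 0.0582 without control replicate 2 and 0.0747 and 0.0911 without cKO replicates 1 and 3 (4.61e-08 to 0.0911 over the 17 alternatives). Calm2 and Tspan18 were next by p, with limma adjusted p-values of 0.183 and 0.185 and no overlap between the groups. Among those with the higher mean in cKO uteri, the smallest limma adjusted p-values were those of Mrln (0.0567), a SERCA inhibitor of skeletal muscle, and Sypl2 (0.0568), a protein of its triad membranes, then Stac3 (0.0646) and Hrc (0.0728). Mrln was at 422, 477 and 376 in control uteri and 669.96, 943 and 809.9 in cKO uteri, and Sypl2 was at 1346, 2042 and 1246 and at 2973, 2865 and 3363. Neither gene's groups overlapped.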

How the data were processed

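Uterus RNA of 6 mice was sequenced, 1 library per animal. Per the submitters' processing notes, the authors used HISAT2, SAMtools and featureCounts (versions not given) and GRCm39; gene coordinates in the deposited table match GRCm38 (GENCODE vM21) for 25239 of 25988 genes found, and for all 55 calcium genes. The deposited values are a signal, counts divided by 1 size factor per library, from which whole reads were recovered for 100% of values (tolerance 0.01). The log2 fold changes and p-values of the authors' deposited table come from a tool not given in the sources used here. Here, limma 3.58.1 (trend, robust) was run on log2(value + 1), which understates changes of low genes, for 16314 genes passing edgeR's filterByExpr, with Benjamini-Hochberg adjustment, after a test on simulated data. edgeR 4.0.16, DESeq2 1.42.0 and voom on recovered reads, other scalings, pseudocounts and filters, a replicate block and left-out libraries were alternatives. The p-values measure the spread between these animals. The calcium genes, marker lists and other calcium genes were chosen with earlier results of these data known. All 55 genes entered the counts, and 1 is not reported here by name. Genes called, otherwise those at an unadjusted p under 0.05 or most abundant per length in their role, are given by library, and of the other calcium genes up to 4 in each direction by p are named. Intervals and floors cover counting error only where they come from reads.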

Additional observations from a re-analysis of the deposited data

How the results depend on the processing

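No followed log2 fold change (24 genes, 17 alternatives) changed direction. Those genes were chosen by p-values from the same data and the alternatives reused the same libraries, so a kept direction was likely beforehand. Of the comparisons by gene and alternative, 364 kept their side of the threshold, 22 passed it newly and 22 no longer passed. Cacna1h, Ryr3 and Mrvi1 passed in all 17. The count of calcium genes called lower was 6, and 11 with DESeq2, 5 with edgeR, 4 with voom, 8 with no filter and 2 to 10 when 1 library was left out (10 without control replicate 1). The count called higher was 0, and 4 with DESeq2, 1 with no filter and 0 to 3 when 1 library was left out (3 without control replicate 2). Of the other calcium genes, 2 were called lower, and 4 with DESeq2, 1 with voom and 1 to 4 when 1 library was left out. None was called higher, and 5 were with DESeq2, 4 with no filter and 0 to 2 when 1 library was left out. Over all genes, 145 were called lower and 45 higher, against 578 and 280 with DESeq2 and 120 and 31 with edgeR. They were 82 and 19 with voom, 119 and 12 with total-count scaling and 200 and 82 of 26018 genes with no filter. When 1 library was left out, 46 to 277 were lower (0.282 to 1.7%) and 1 to 92 higher (0.00613 to 0.564%). The 277 and 92 came without control replicate 1, and without control replicate 2 they were 85 and 75. Control replicates 1 and 3 were also left out together, chosen after seeing the data because of their liver and neuron transcripts. The median log2 fold change was then -0.21 for the tested calcium genes and -0.011 for all tested genes. That fit leaves 1 control library, assumed to vary like the others. With a replicate block, the same 6 calcium genes were called lower, 0 higher and 2 of the others lower, but same-numbered animals shared only a number, with correlations of their deviations of 0.00843, -0.176 and 0.0438. The causes of these changes were not tested. Low reads limit the 8 untested genes, which had at most 106 reads in any library.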
